A study of Homo sapiens with 2 samples.

Results

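A set of 10 genes of the hepatic acute-phase response outside the complement system was examined: the plasma protein genes HP, LBP, CP, CRP, HPX, SAA4, HAMP and A2M, and the interleukin 6 receptor genes IL6R and IL6ST. The rule takes them by name and uses no measured value, although the set was put together with earlier results of these data known. Of these 10 genes, 9 had at least 1 probe set annotated to that gene alone, 24 probe sets in all, out of 19775 genes measured in the same way. SAA4 was named only by a probe set shared with its readthrough transcript SAA2-SAA4, so it has no value of its own and is not counted among the 9. The study set 2 cultures of Huh7 against each other, a human line from a hepatocellular carcinoma. Both carried a stable lentiviral hairpin. In one culture it was a short hairpin RNA (shRNA) that targets CD24, a glycoprotein of the cell surface, and in the other a non-target control (NTC). Cells were grown in DMEM with serum and antibiotics, and the labels name no cytokine. Total RNA of each culture was measured on 1 Affymetrix array, and whether the cultures were clones or pools is not given in the sources used here.

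With 1 array per group there is no replicate check, no test across samples was possible, and precision is limited by how few arrays there are. The deposited log2 values were centred on the pair of arrays for each probe set, so a probe set's values on the control and CD24 shRNA arrays were equal and opposite and the level itself was not in the table. Values are therefore given as the log2 difference, CD24 shRNA minus control, averaged over the probe sets of a gene. The error is the SD over probe sets, which leaves out any spread between cultures. Pooled over the 10523 genes with 2 or more probe sets, this SD was 0.27. CD24 itself had a difference of -1.37 ± 0.38 (SD, 6 probe sets), with all 6 probe sets below 0. The digits of the file placed the dimmer array below a log2 level of 4, the low end of the scale, for 25.7% of probe sets with 1 gene. The same was true of 1 of 21 probe sets of hepatocyte markers, 4 of 9 of endothelial, 7 of 19 of stellate or fibroblast, 2 of 7 of macrophage, 3 of 7 of cholangiocyte and 3 of 6 of lymphocyte markers. Among hepatocyte markers the differences ran from -0.45 (TF) to 0.59 (FGB), and among markers of the other cell types from -0.37 (CD14) to 0.63 (KRT19). Most of the hepatocyte markers, TF and FGB included, are also in the lists of acute-phase genes below, so their range is not independent of those lists. The part of other cell types in the results was not tested.

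In the acute-phase response, interleukin 6 binds IL6R, which then engages the shared signalling subunit IL6ST. The associated JAK kinases activate STAT3, and STAT3 acts with C/EBP and other factors on genes of secreted proteins in hepatocytes. These proteins bind microbial products, scavenge haemoglobin and heme, carry copper, restrict iron and inhibit proteases.

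LBP, CP and HP were the lowest of the 9 measured genes with CD24 shRNA, at 2.80-fold, 2.58-fold and 2.28-fold lower. These encode a lipopolysaccharide-binding protein, a copper carrier and a haemoglobin scavenger. IL6R and HAMP followed at 1.76-fold and 1.61-fold lower, and A2M, HPX, CRP and IL6ST lay within 0.23 of 0 on the log2 scale. In RNA from a whole culture, fewer cells that express a gene and less RNA per cell cannot be told apart. In all, 3 of the 9 genes were at least 2-fold lower, where 0.485% of all genes were, and 0 were at least 2-fold higher, where 0.632% of all genes were. Of the 9 genes, 8 lay below 0, compared with 47.5% of all genes. Their median was -0.69, compared with 0 over all genes. In the order of values the steps from HP to IL6R (0.38) and from HAMP to A2M (0.46) were larger than the pooled SD between probe sets, and the other steps were smaller. The probe sets of IL6R were spread more widely than the first of these steps.

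**Figure D1:**
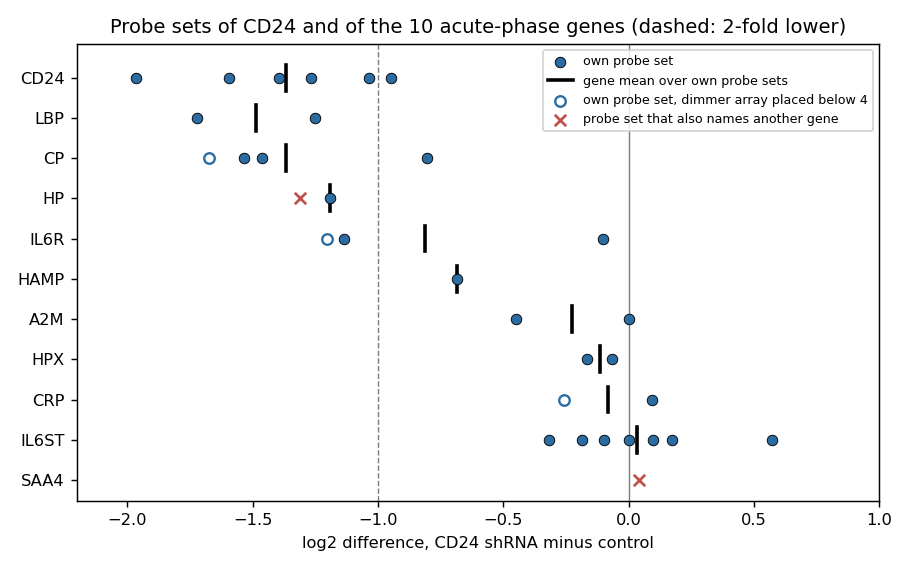
Log2 difference, CD24 shRNA minus control, of each probe set (points) of CD24 and the 10 acute-phase genes, with the mean over a gene's own probe sets as a black bar, open points for probe sets whose dimmer array was placed below 4, and crosses for probe sets that also name another gene. Both LBP probe sets and the HP probe set lie past the dashed line of a 2-fold decrease, whereas those of IL6ST lie on both sides of 0.

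**Figure D2:**
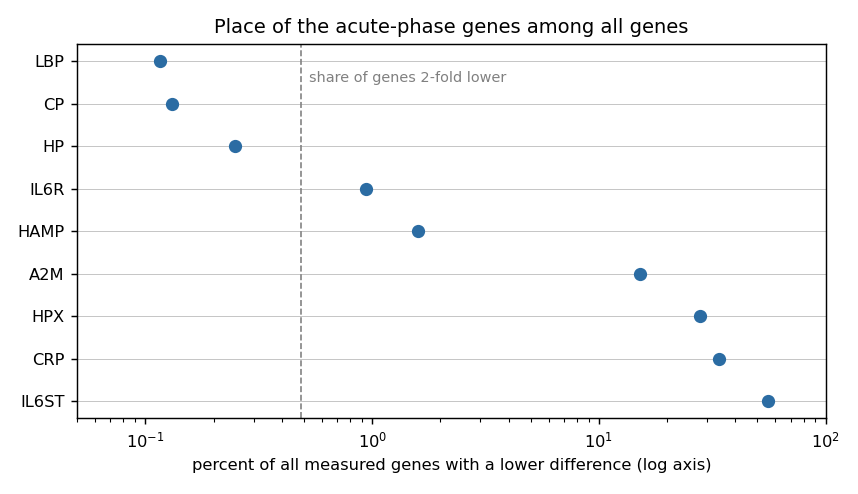
Percent of the 19775 measured genes with a lower difference than each acute-phase gene, on a log axis, with the share of all genes that were at least 2-fold lower (0.485%) as a dashed line. LBP, CP and HP lie to the left of this line, and IL6ST lies at 55.6%.

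RefSeq promoter sequences (GRCh38.p14) were at hand for 6 of the 10 genes: CRP, HPX, SAA4, HAMP, IL6R and IL6ST. The 250 bases before the start are shown for 4 of them: IL6R and HAMP, which were at least 1.5-fold lower, and HPX and CRP, which lay near 0. None of the 3 genes past 2-fold is among them. Capitals mark every match, on either strand, to a STAT palindrome (TTCNNNGAA), the core of the type II interleukin 6 response element (CTGGGAA), a C/EBP motif (TTNNGNAA), part of an HNF1 site (GTTAAT), an HNF4 core (CAAAGTCCA), a BMP response motif (GGCGCC) or a TATA box (TATAAA). No 2 of the matches marked here overlap. The windows are chr1:154405093-154405342 (plus strand) for IL6R, chr19:35282278-35282527 (plus strand) for HAMP, chr11:6440988-6441237 (minus strand) for HPX and chr1:159714590-159714839 (minus strand) for CRP.
IL6R: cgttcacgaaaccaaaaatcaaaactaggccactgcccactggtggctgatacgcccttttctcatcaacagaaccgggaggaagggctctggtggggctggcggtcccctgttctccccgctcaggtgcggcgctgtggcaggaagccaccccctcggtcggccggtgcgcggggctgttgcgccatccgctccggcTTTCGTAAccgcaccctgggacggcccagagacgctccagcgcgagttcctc
HAMP: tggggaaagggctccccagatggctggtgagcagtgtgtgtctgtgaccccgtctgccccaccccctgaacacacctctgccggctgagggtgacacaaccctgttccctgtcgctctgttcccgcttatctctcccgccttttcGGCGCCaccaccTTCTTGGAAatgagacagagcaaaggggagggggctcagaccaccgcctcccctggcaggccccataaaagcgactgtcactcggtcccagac
HPX: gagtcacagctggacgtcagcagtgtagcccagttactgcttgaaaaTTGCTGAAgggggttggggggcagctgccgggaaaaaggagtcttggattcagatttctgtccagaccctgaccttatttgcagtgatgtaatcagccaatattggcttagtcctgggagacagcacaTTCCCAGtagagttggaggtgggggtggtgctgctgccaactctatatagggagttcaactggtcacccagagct
CRP: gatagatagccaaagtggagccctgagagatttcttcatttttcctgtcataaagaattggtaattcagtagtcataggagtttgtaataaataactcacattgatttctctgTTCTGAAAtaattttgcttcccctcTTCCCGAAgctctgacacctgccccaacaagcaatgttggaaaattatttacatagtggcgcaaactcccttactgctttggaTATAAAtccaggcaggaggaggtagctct

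Of these windows, that of HAMP held both a STAT palindrome, at -93 to -85 relative to the start, and a BMP response motif, at -105 to -100. A STAT palindrome occurred in 6.57% and the BMP motif in 16.4% of 35116 promoter windows of the same length. The HPX window held a type II core at -75 to -69, on the minus strand of the gene (9.15% of promoters), and a C/EBP match at -203 to -196. CRP had C/EBP matches at -137 to -130 and -112 to -105, and a TATA box at -29 to -24 (10.7% of promoters). IL6R had 1 C/EBP match, at -52 to -45, SAA4 had 6 and an HNF1 match (6.23% of promoters), and IL6ST had 0 matches to any of the motifs. The C/EBP letters are permissive and occurred in 33.2% of promoters, and the HNF4 core, found in 0.325%, was in none of the 6 windows. GC content was 35.6% in the SAA4 window, 40% in CRP, 52% in HPX, 62.4% in HAMP, 65.2% in IL6R and 73.6% in IL6ST. The mean over all promoters was 57.2%, and the shares of promoters with a match were not adjusted for GC content. A match describes the letters only, and STAT motifs with another spacing than TTCNNNGAA were not searched.

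**Figure D3:**
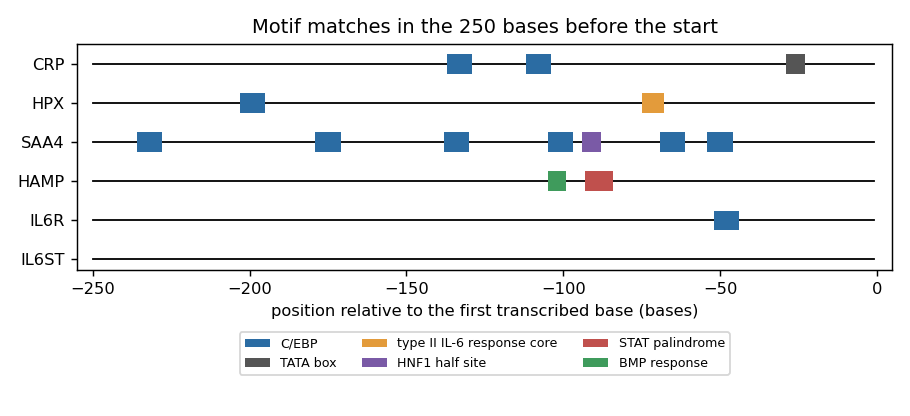
Positions of motif matches (coloured boxes) in the 250 bases before the first transcribed base of the 6 genes with a RefSeq promoter sequence, with distance from the start in bases. SAA4 holds 6 C/EBP matches, HAMP a BMP motif beside a STAT palindrome, and IL6ST no match.

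Among the proteins that recognise microbes, LBP and CRP lay apart. LBP encodes the lipopolysaccharide-binding protein, which hands bacterial lipopolysaccharide to CD14. Its centred values averaged 0.74 on the control array and -0.74 on the CD24 shRNA array, a difference of -1.49 ± 0.33 (SD, 2 probe sets). The probe sets lay at -1.72 and -1.25, so each alone passed 2-fold, and LBP ranked 24 from the lowest of all genes. CRP, the pentraxin C-reactive protein, which binds phosphocholine on microbes and damaged cells, had centred values of 0.04 and -0.04. Its difference was -0.08 ± 0.25 (SD, 2 probe sets), with probe sets at 0.09 and -0.26. The dimmer array of the latter was placed below 4, and without that probe set CRP lay at 0.09. CRP thus had no difference that its probe sets shared. Of the other genes of lipopolysaccharide recognition, 6 were measured, 3 below and 3 above 0, with a median of -0.10 and none past 2-fold. CD14 itself, the receptor that takes lipopolysaccharide from LBP, lay at -0.37 on 1 probe set and TLR4, the signalling receptor, at 0.11 ± 0.35 (SD, 4 probe sets).

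The haemoglobin and heme scavengers also differed from each other. HP encodes haptoglobin, which binds free haemoglobin. Its probe set had values of 0.60 on the control array and -0.60 on the CD24 shRNA array, a difference of -1.19. A second probe set, which names both HP and its paralogue HPR, lay at -1.31, and the probe set of HPR alone at -0.78. The HP probe set has a name ending in _s_at, which can match several transcripts, so HP and HPR cannot be fully told apart by these probe sets. HPX, hemopexin, which binds free heme, had centred values of 0.06 and -0.06 and a difference of -0.12 ± 0.07 (SD, 2 probe sets), with probe sets at -0.17 and -0.07. Both HPX probe sets lay below 0, by less than the pooled SD. CP, the copper-carrying ferroxidase ceruloplasmin, had mean values of 0.68 and -0.68 and a difference of -1.37 ± 0.39 (SD, 4 probe sets). Its probe sets lay at -1.67, -1.53, -1.46 and -0.80, all on 1 side. The dimmer array of the first was placed below 4, and without it CP lay at -1.27.

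Of 12 genes that handle haemoglobin, heme and copper, 7 lay below and 5 above 0, and 0 passed 2-fold in either direction. Their median was -0.04. With the arrays scaled on the hybridisation controls, 3 lay below and 9 above 0, and the median was 0.04. HMOX1, the heme-degrading oxygenase, was 1.64-fold higher on 1 probe set. HEPH, the ferroxidase hephaestin, a relative of CP, was higher by 0.85 on the log2 scale on average, but 1 of its 2 probe sets lay at 1.70 and the other was tied at 0. The copper ATPases that load and export copper lay at 0.01 ± 0.15 (ATP7A) and 0.22 ± 0.15 (ATP7B, SD, 2 probe sets each). Among the genes below 0, BLVRB lay at -0.57 on 1 probe set and FLVCR1 at -0.52 ± 0.06 (SD, 2 probe sets). No gene of this list was thus as far from 0 as CP or HP.

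HAMP encodes hepcidin, the peptide hormone that removes the iron exporter ferroportin from cell surfaces. Its probe set had values of 0.34 on the control and -0.34 on the CD24 shRNA array, a difference of -0.69. HAMP ranked 315 from the lowest, with 1.59% of genes below it. It was 1 of 5 acute-phase genes at least 1.5-fold lower, where 2.38% of all genes were. None of the 9 was at least 1.5-fold higher, where 2.63% of all genes were, or at least 3-fold lower, where 0.086% were. Among 17 measured genes of hepcidin and iron control, 0 passed 2-fold, 9 lay below and 8 above 0, and the median was -0.01. With the arrays scaled on the hybridisation controls, 5 lay below and 12 above 0, and the median was 0.07. The 2 at least 1.5-fold from 0 were both lower. TFR2, a transferrin receptor of hepatocytes that acts upstream of hepcidin, lay at -0.89 ± 0.76 (SD, 3 probe sets), with probe sets from -1.68 to -0.16. HJV, hemojuvelin, a BMP co-receptor, lay at -0.72 on 1 probe set. BMP6, its ligand, lay at 0.04 ± 0.18 (SD, 3 probe sets), and ID1 and SMAD7, targets of BMP signalling, at 0.07 and 0.47 on 1 probe set each.

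A2M, alpha-2-macroglobulin, a broad protease inhibitor of plasma, had mean values of 0.11 and -0.11 and a difference of -0.23 ± 0.32 (SD, 2 probe sets). One probe set lay at -0.45 and the other was at 0 on both arrays. Exact ties of this kind occurred in 5.53% of probe sets with 1 gene. The related PZP and CD109 lay at 0.07 (1 probe set) and -0.19 ± 0.39 (SD, 3 probe sets), and LRP1, the clearance receptor of A2M complexes, at 0.04 ± 0.22 (SD, 4 probe sets). None of the 5 measured genes of this family passed 1.5-fold. The SAA4 and SAA2-SAA4 probe set lay at 0.04. SAA4 is the constitutive serum amyloid A of lipoproteins, and the inducible SAA1 and SAA2 were measured only by shared probe sets, at -0.50 (SAA1, SAA2 and SAA2-SAA4) and -0.75 (SAA1 and SAA2).

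The 2 receptor genes differed in their values. IL6R encodes the ligand-binding chain, present on hepatocytes and few other cells. Its centred values averaged 0.41 on the control and -0.41 on the CD24 shRNA array, a difference of -0.81 ± 0.62 (SD, 3 probe sets). Its probe sets disagreed, with differences of -1.20, -1.13 and -0.10, and the last has a name ending in _s_at. The dimmer array of the first was placed below 4. IL6R lay at -1.17 without probe sets named _s_at or _x_at, at -1.13 by the median over probe sets, and at -0.62 without the probe set placed below 4, so its place beyond 2-fold depends on this choice. IL6ST, the signal-transducing chain shared with other cytokines of the family and found on most cells, had mean values of -0.02 and 0.02. Its difference was 0.03 ± 0.29 (SD, 7 probe sets), with 3 probe sets below 0, 3 above and 1 tied, from -0.32 to 0.57. The IL6ST probe sets were thus split evenly around 0.

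Counted over single probe sets, 18 of the 24 lay below 0, 4 above and 2 were tied, and 8 were at least 2-fold lower, where 0.60% of all probe sets with 1 gene were. The share of all probe sets below 0 was not computed, and over genes it was 47.5%. Probe sets of the same gene are not independent, and 7 of the 24 belong to IL6ST. Of the 7 genes with 2 or more probe sets, 4 (LBP, CP, HPX and IL6R) had every probe set below 0, compared with 18.4% of the 10523 such genes. The dimmer array was placed below 4 for 3 of the 24 probe sets.

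**Figure D4:**
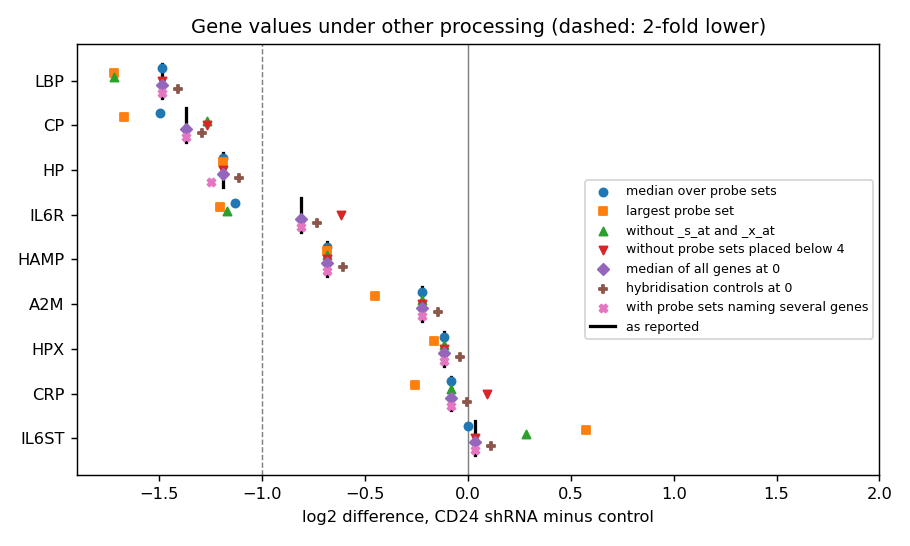
Log2 difference of each gene as reported (black bar) and under the other ways of processing (symbols), with the 2-fold decrease dashed. LBP, CP and HP stay left of the dashed line wherever they have a value, IL6R lies on both sides of it, and CRP lies at 0.09 without the probe set placed below 4.

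The other parts of the pathway were read from lists. Of 7 measured ligands of the interleukin 6 family, 1 was at least 2-fold lower: LIF, leukaemia inhibitory factor, at -1.34 on 1 probe set. IL6 itself lay at 0.24 on 1 probe set. The 5 partner receptors had a median of -0.16 and 0 past 1.5-fold, with LIFR, the receptor of LIF, highest at 0.58 ± 0.31 (SD, 5 probe sets). The 9 measured genes of JAK-STAT transduction and receptor shedding had 8 above 0 and 1 tied, a median of 0.19 and 0 past 1.5-fold. Among them were JAK1 at 0.36 ± 0.35 (SD, 5 probe sets), STAT3 at 0.33 ± 0.24 (SD, 4 probe sets) and ADAM10, a protease that sheds receptors, at 0.47 ± 0.22 (SD, 3 probe sets). Of 7 inhibitors of JAK-STAT signalling (SOCS and PIAS proteins, CISH and the phosphatase PTPN2), SOCS2, an inhibitor best known for growth hormone signalling, was at least 2-fold higher (1.13 ± 0.98, SD, 3 probe sets, from 0 to 1.81), and SOCS3, the inhibitor of IL6ST signalling and a STAT3 target, lay at 0.04 ± 0.12 (SD, 4 probe sets). Thus 1 ligand and 1 inhibitor were past 2-fold, in opposite directions.

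Of 8 measured genes listed as transcription factors of acute-phase promoters, 7 lay below 0 (5 with the arrays scaled on the hybridisation controls). Their median was -0.41, and 0 were past 1.5-fold. CEBPA and CEBPB, C/EBP factors of hepatocytes, lay at -0.47 and -0.42 and NFIL3 at -0.46, on 1 probe set each. NFIL3 is counted in this list, but whether it acts on acute-phase promoters was not examined. RELA, a subunit of NF-kB, lay at -0.46 ± 0.35 (SD, 2 probe sets), while CEBPD, another C/EBP factor, lay at 0.40 ± 0.34 (SD, 2 probe sets). Among 15 other positive acute-phase genes 11 lay below 0, 4 were at least 2-fold lower and 0 were at least 2-fold higher. Their median was -0.45. The 4 were ITIH3 (-2.06), SERPINA3 (-1.95), FGL1 (-1.72) and C3 (-1.30), each on 1 probe set. ITIH3, SERPINA3 and FGL1 lay lower than LBP (-1.49), the lowest of the 9 measured genes described here. LCN2, the siderophore-binding lipocalin, lay at -0.86, SERPING1, the C1 inhibitor, at -0.66 and ORM1, an orosomucoid, at -0.62, on 1 probe set each. A pair of probe sets shared by ORM1 and ORM2 lay at -0.33 and -0.36. Of the fibrinogen chains, FGB lay at 0.59 ± 0.02 (SD, 2 probe sets), the 1 gene of the list at least 1.5-fold higher, FGG at 0.38 (1 probe set) and FGA at 0.06 ± 0.30 (SD, 3 probe sets). Of 9 measured negative acute-phase genes, whose products fall in plasma during inflammation, 8 also lay below 0 (7 with the arrays scaled on the hybridisation controls), with a median of -0.32 and 0 past 2-fold. The 2 lowest of these were AHSG, fetuin-A, at -0.94 ± 0.13 (SD, 2 probe sets) and ITIH2, a chain that binds hyaluronan in the matrix, at -0.59 on 1 probe set. Genes of positive and of negative acute-phase proteins thus had medians on the same side of 0.

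**Figure D5:**
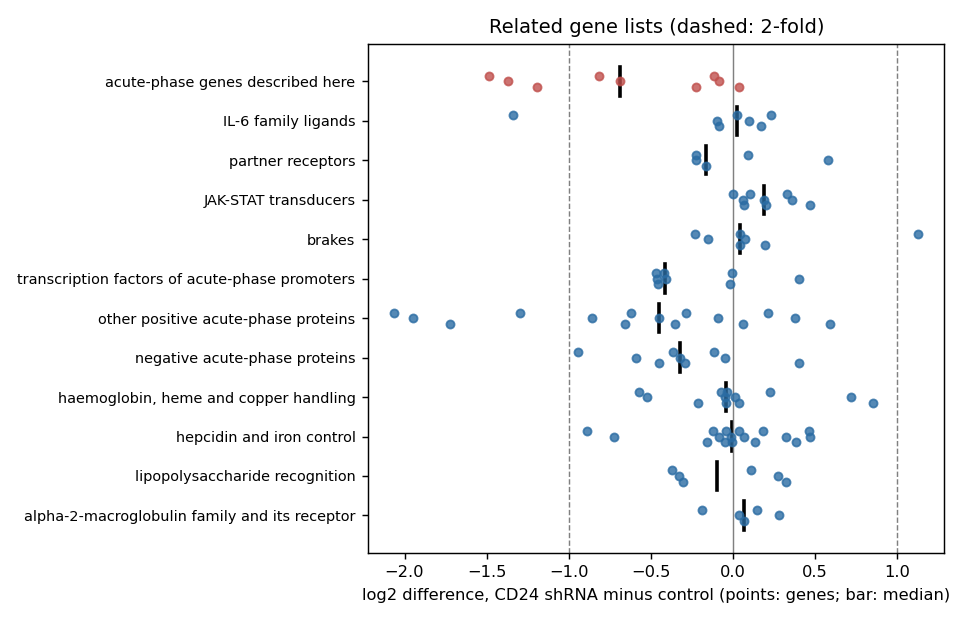
Log2 difference of each gene (points) in the acute-phase genes described here and in 11 related lists, with the median of each list as a black bar and 2-fold differences dashed. The medians run from -0.69 for the acute-phase genes described here to 0.19 for the list labelled JAK-STAT transducers, which includes the sheddases ADAM10 and ADAM17.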

How the data were processed

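Total RNA of 2 Huh7 cultures, extracted with Trizol and labelled with biotin per the labels, was measured on 1 Affymetrix array each. The authors deposited a log2 table, for which the submitters' processing notes name RMA (robust multi-array average). Its version and the later steps were not given in these sources. From the values, probe sets had been centred over both arrays (sums within 1e-06 of 0), so levels are not in the table. A difference has a direction because RMA gives more transcript a higher value. Of 54675 probe sets, 41091 named 1 gene by GEO's annotation of the platform (41037 found in the RefSeq table), 1801 named several, 11721 none here, and 62 were array controls. A gene was given the mean difference of its probe sets, and 2-fold was the size counted.

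With 1 array per group no p-value was computed. A probe set was placed below 4 when its digits were finer than single-precision numbers of at least 4 can hold; this finds only part of the dim probe sets. The calculations were tested on simulated data with Python 3.11.15, pandas 2.3.3 and numpy 2.4.6. The alternatives were the median or largest probe set, leaving out probe sets named _s_at or _x_at, leaving out those placed below 4, scaling on all genes or on 18 hybridisation control probe sets, using probe sets that name several genes, and 1.5-fold or 3-fold. The genes and lists were chosen with earlier results of these data known. All 10 genes were to be named, and up to 4 of each related list at 1.5-fold or more; the other list genes, HPR and the shared SAA probe sets were named after their values were seen. With 1 difference per gene, no genes were sought with a similar pattern.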

Additional observations from a re-analysis of the deposited data

How the results depend on the processing

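The count of 3 genes at least 2-fold lower was 5 at a 1.5-fold threshold and 0 at a 3-fold threshold, where 2.38% and 0.086% of all genes were lower by as much. It was 4 with the median or the largest probe set, with IL6R added, and 3 under the other alternatives, among them the one without probe sets named _s_at or _x_at, where HP had no value and IL6R passed 2-fold. The median over the genes ran from -0.69 to -0.46. Of 62 values of single genes under alternatives 60 moved by no more than the SD over the probe sets of the gene (the pooled SD of 0.27 for HP and HAMP, which have 1 probe set), the exceptions being IL6ST at 0.57 with its largest probe set and HPX at -0.04 with the arrays scaled on the hybridisation controls. That scaling adds 0.08 to every difference and makes the split over all genes 78 lower and 165 higher at 2-fold, compared with 96 and 125. Many of the 62 values could not move further than the SD. Scaling on all genes left every value as it was, because the median over all genes was already 0. For a gene with 2 probe sets, the largest always lies within the SD of their mean. The count of 60 is therefore not a measure of robustness. No paired analysis was possible because each group has 1 array, and for the same reason no array could be left out. Without levels, how far each probe set lay above background could be read only in part.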
